A study of Homo sapiens with 2 samples.

Results

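GAS5, SNHG1, SNHG5, SNHG6, SNHG7, SNHG8, SNHG12, SNHG15, SNHG16 and ZFAS1 are long noncoding genes that carry small nucleolar RNAs (snoRNAs) in their introns. They were followed here, model by model, in direct RNA sequencing of GM12878, a human B cell line immortalised with Epstein-Barr virus. The members were chosen by gene symbol, and each of the 10 symbols matched 1 of the 16645 annotated genes with a read. Together they held 489 of the 237608 transcript models in the deposited count table. There was 1 group, untreated as far as the labels say, of 2 libraries (replicate 1 and replicate 2), both from the same cell line and made from depleted total RNA on nanopore flow cells with a reverse transcription step to open RNA structure. The labels do not say whether the replicates came from separate cultures, so every p-value below compares the reads of these 2 libraries and no conditions. In this method 1 native RNA strand gives 1 read, so CPM values (counts scaled to the size of the library) were compared between genes without division by length.

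A snoRNA host gene is transcribed and spliced like a messenger RNA, and the snoRNA is trimmed out of the excised intron. Box C/D snoRNAs guide ribose methylation and H/ACA snoRNAs guide pseudouridylation of ribosomal and other RNAs. The spliced exons of several noncoding hosts hold no long reading frame, begin with a pyrimidine tract like that of ribosomal protein messages, and are known substrates of nonsense-mediated decay in translating cells.

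The libraries held 1360368 and 1510998 reads, and 1 read was worth 0.735 and 0.662 CPM. A count of 0 allowed up to 2.21 and 1.99 CPM (3 reads). All 8 B cell markers had reads, from PAX5 at 43.0 CPM to CD74 at 7927 CPM in the mean of both libraries. Of 7 markers of other lineages, ALB, HBG1 and GATA1 had 0 reads, and CD3E, the T cell receptor subunit with most reads among them, had 5 and 16. Across all annotated genes outside the 10, reads in known models (defined below) made up 56.5% in replicate 1 and 46.4% in replicate 2. What separated the libraries in this share was not tested.

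The sequences that carry the findings below are the most-read annotated form of SNHG5, an annotated SNHG8 form that keeps its snoRNA, and the SNHG15 snoRNA that was itself read. All come from GENCODE release 29 on GRCh38 and are written 5′ to 3′. SNHG5-202 has 6 exons and 430 bases, of which the first 4 exons (253 bases, chr6:85677795-85678733, minus strand) are shown. Every second exon is in capitals, to show how short the exons are. SNHG8-204 has 570 bases, of which the first 300 (chr4:118279060-118279359, plus strand) are shown, with the H/ACA snoRNA SNORA24 in capitals at bases 131 to 261. SNORA9 (chr7:44985378-44985510, minus strand, 133 bases, in an intron of SNHG15-203) has its last ACA in capitals, which ends 3 bases before the 3′ end, as does that of SNORA24.
SNHG5-202, exons 1 to 4: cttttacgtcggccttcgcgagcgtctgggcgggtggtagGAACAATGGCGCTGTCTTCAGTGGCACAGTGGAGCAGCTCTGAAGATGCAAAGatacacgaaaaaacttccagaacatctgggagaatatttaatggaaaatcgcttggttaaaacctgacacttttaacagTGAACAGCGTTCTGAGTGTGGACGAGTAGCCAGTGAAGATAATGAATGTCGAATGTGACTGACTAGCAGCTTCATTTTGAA
SNHG8-204, bases 1 to 300: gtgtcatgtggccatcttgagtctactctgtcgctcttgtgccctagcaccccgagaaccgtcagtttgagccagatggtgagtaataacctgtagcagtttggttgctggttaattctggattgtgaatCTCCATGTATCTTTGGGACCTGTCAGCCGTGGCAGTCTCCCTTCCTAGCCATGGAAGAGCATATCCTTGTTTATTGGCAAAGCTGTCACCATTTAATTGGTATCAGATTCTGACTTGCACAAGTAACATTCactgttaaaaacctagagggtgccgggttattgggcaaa
SNORA9: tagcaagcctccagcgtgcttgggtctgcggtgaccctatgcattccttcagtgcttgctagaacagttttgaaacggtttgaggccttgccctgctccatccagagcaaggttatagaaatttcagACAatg

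The 10 hosts together gave 1706 reads (1254 CPM) in replicate 1 and 2299 reads (1521 CPM) in replicate 2, 0.125% and 0.152% of each library, with a mean of 1388 ± 189 CPM (SD, n = 2). SNHG5, host of SNORD50B, stood highest, with 474 and 686 reads, 348 and 454 CPM (mean 401 ± 74.6), rank 304 among all annotated genes. ZFAS1, host of the SNORD12 family, followed with 305 and 444 reads, 224 and 294 CPM (259 ± 49.2). GAS5, named for its accumulation in growth-arrested cells, had 247 and 332 reads, 182 and 220 CPM (201 ± 27.0). All 3 were higher in replicate 2, and together they held 60.1% and 63.6% of the reads of the 10 genes.

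SNHG16, host of SNORD1A, SNORD1B and SNORD1C, had 203 and 245 reads, 149 and 162 CPM (156 ± 9.14). SNHG6, host of SNORD87, had 171 and 191 reads and the same level in both libraries, 126 CPM (126 ± 0.499). SNHG8, host of SNORA24, had 120 and 189 reads, 88.2 and 125 CPM (107 ± 26.1). These 3 formed a middle tier in which SNHG8 in replicate 2 came up to SNHG6, and the difference between their means was smaller than the SD of SNHG8.

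The 4 lowest hosts were SNHG1, which carries a run of box C/D snoRNAs, with 70 and 76 reads (51.5 and 50.3 CPM, mean 50.9 ± 0.819), and SNHG15, with 62 and 58 reads (45.6 and 38.4 CPM, 42.0 ± 5.08). Below them stood SNHG7, host of the SNORA17 genes, with 34 and 52 reads (24.99 and 34.4 CPM, 29.7 ± 6.66), and SNHG12, with 20 and 26 reads (14.7 and 17.2 CPM, 16.0 ± 1.77; rank 6361). The order of the 10 genes was the same in both libraries. Exact 95% Poisson intervals, which cover counting error only, overlapped in both libraries for 2 of the 9 neighbouring pairs, SNHG16 with SNHG6 and SNHG1 with SNHG15, and in 1 library for 5 further pairs. Only SNHG5 with ZFAS1 and SNHG8 with SNHG1 were apart in both.

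**Figure D1:**
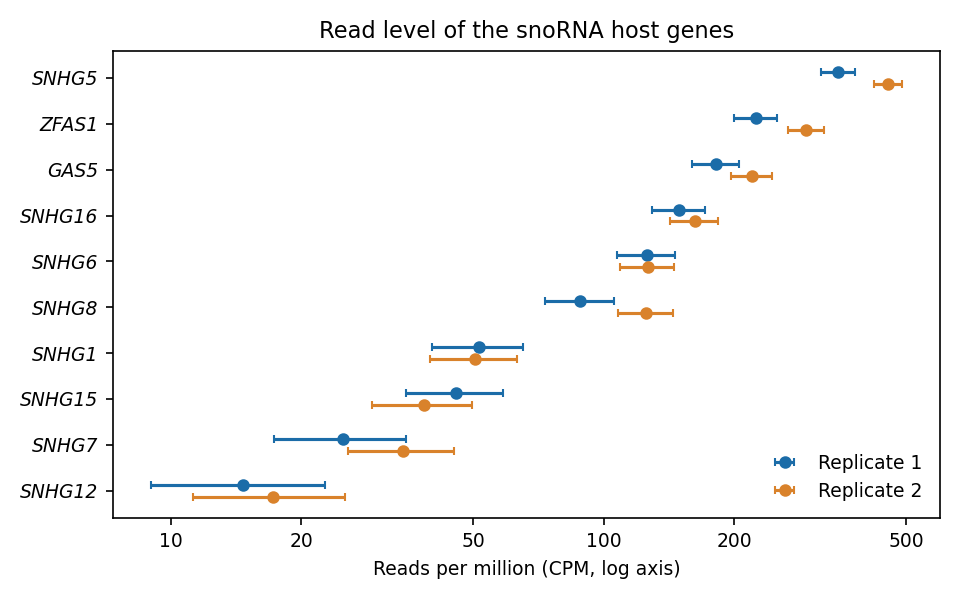
Level of each host gene in CPM (log axis) in replicate 1 and replicate 2, with exact 95% Poisson intervals as bars. SNHG5 is highest at 348 and 454 CPM and SNHG12 lowest at 14.7 and 17.2 CPM, and SNHG8 shows the widest relative gap between the libraries.

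Of the 10 hosts, 2 were called higher in replicate 2 and 0 lower by a two-sided exact binomial test of the gene's reads against the library totals, with Benjamini-Hochberg adjustment over all 10634 annotated genes with at least 10 reads. The background was 5.05% of genes called in either direction, 2.72% of them higher and 2.33% lower in replicate 2. SNHG5 differed by 0.38 on the log2 scale (adjusted p = 0.00055, exact binomial test) and ZFAS1 by 0.39 (adjusted p = 0.0094, exact binomial test). SNHG8 differed by 0.50 with an adjusted p of 0.056, and GAS5 by 0.27 with an adjusted p of 0.213, both under the exact binomial test. The other 6 lay between -0.25 (SNHG15) and 0.45 (SNHG7) with adjusted p of 0.546 or more. In all, 8 of 10 hosts had a higher level in replicate 2 (SNHG6, at 0.01, turned to -0.02 with TMM scaling, and SNHG1, at -0.03, to 0.07 without genomic models), with a median log2 difference of 0.25 against 0.01 over all genes tested, and 4 had an unadjusted p under 0.05. Over all genes tested 51.1% were higher in replicate 2 and 15.8% had an unadjusted p under 0.05. SNHG8 passed the threshold when scaled by DESeq2 size factors, where the log2 difference was 0.51 and the adjusted p was 0.0496.

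The read categories describe how a read's splice junctions compare with the annotation. For models of 2 or more exons, a known read matches every junction of an annotated model. An incomplete read (ISM) matches part of one. A read in the NIC class joins annotated splice sites in an unlisted combination, and a read in the NNC class uses an unlisted splice site. A genomic read overlaps the gene without falling in these classes, nearly always as 1 exon. Lengths and ends given for known models are the annotated ones, and where the reads begin and end was not measured. Pooled over the 10 hosts, known reads made up 60.8% (95% Wilson interval 58.4 to 63.1) in replicate 1 and 58.6% (56.6 to 60.6) in replicate 2. Over all other annotated genes the share was 56.5% and 46.4%. ISM reads made up 12.1% and 15.1% in the hosts, against 24.1% and 32.3% elsewhere. Pooled, the hosts had a lower share of partly matched reads in both libraries. By gene, SNHG7 (79.4% and 75%) was above the other genes in both. SNHG1 (27.1% and 32.9%) was higher than them in both, but within its 95% Wilson intervals (18.1 to 38.5 and 23.4 to 44.1). GAS5 (28.3% and 25.9%) and SNHG12 (25% and 30.8%) were above the other genes in replicate 1 alone. Their replicate 1 intervals (23.1 to 34.3 and 11.2 to 46.9) also held the share of the other genes. The remaining hosts were below in both. The median host had a mean ISM share of 11.6%, against 28.7% over 6340 genes and 4.55% over 69 other long noncoding genes. The known models of the hosts were also short, with a read-weighted model length of 806 and 786 bases against 1564 and 1407 bases elsewhere.

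Reads in unlisted splice patterns, NIC and NNC together, were 16.3% and 15.1% of host reads against 8.50% and 6.03% of all other reads. GAS5 supplied much of this, and without it the share was 10.8% and 9.61%. Genomic reads were 10.8% and 11.1% of host reads against 10.9% and 15.3% elsewhere, a difference beyond the Wilson intervals in replicate 2 alone, and without SNHG16 they were 4.06% and 4.72%. Reads of 1 exon were 11.4% and 11.9% against 22.2% and 28.5%. Of the 489 models of the hosts, 315 rested on 1 read, 64.4% against 61.0% of all models, and 131 appeared in both libraries (26.8% against 29.6%).

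**Figure D2:**
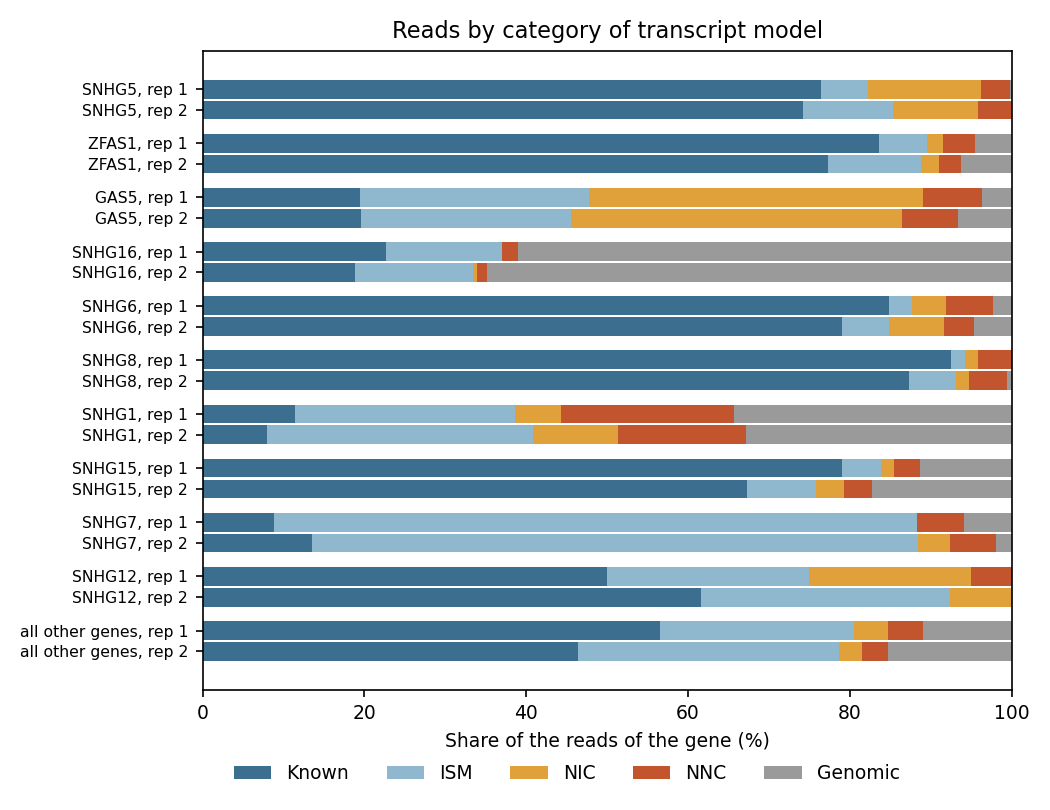
Share of each host gene's reads (percent, from 0) in the categories known, ISM, NIC, NNC and genomic, in replicate 1 and replicate 2, with all other annotated genes in the last bars. SNHG8, SNHG6, SNHG5 and ZFAS1 are mostly known, GAS5 is mostly NIC and ISM, SNHG7 mostly ISM and SNHG16 mostly genomic, in both libraries.

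No host was called for a change in its known share: 0 of 10 by two-sided Fisher's exact test with Benjamini-Hochberg adjustment over 6340 genes with at least 20 reads in each library. The background was 27.1% of genes called, 26.9% lower and 0.268% higher in replicate 2. An unadjusted p under 0.05 was reached by 1 host, ZFAS1, whose known share was 83.6% and 77.3% (p = 0.0335, adjusted p = 0.102, Fisher's exact test), against 36.5% of all genes tested. SNHG15 had 79.0% and 67.2%, SNHG6 84.8% and 79.1%, SNHG8 92.5% and 87.3%, and SNHG5 76.4% and 74.2%. The median difference was -3.71 percentage points in the hosts and -8.62 points over all genes tested. A p that misses the threshold does not show that the shares were equal, and the hosts with fewest reads had the widest intervals, such as SNHG12 with 50% (29.9 to 70.1) and 61.5% (42.5 to 77.6).

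Exon number and the use of annotated forms were tested in the same way. Reads of 1 exon against reads of 2 or more gave 0 of 10 calls and 0 unadjusted p under 0.05 by Fisher's exact test, against a background of 20.9% of 6101 genes (20.9% higher and 0.0328% lower in replicate 2). The share of the leading known model among known reads gave 0 of 7 calls and 0 unadjusted p under 0.05, against a background of 12.5% of 1878 genes (1.44% higher and 11% lower). The median of that share was 69.6% and 63.5% in the hosts and 89.4% and 83.8% over all genes tested. Averaged over both libraries, the median host had 64.5% known reads, against 24.8% over 6340 genes and 14.6% over 69 other long noncoding genes. The median host had 5.29% of reads in models of 1 exon, against 29.3% and 46.6%. A high known share was also found in other snoRNA hosts. The medians were 90.4% and 90.8% in the 4 other noncoding hosts tested and 75.7% and 67.8% in 20 protein-coding hosts. Pooled reads of 1 exon were 2.23% and 4.23% in the protein-coding hosts. In the 15 other noncoding hosts with reads they were 15.8% and 28.4%, with DANCR at 19.0% and 43.0%. The pooled share over all other annotated genes was 22.2% and 28.5%.

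**Figure D3:**
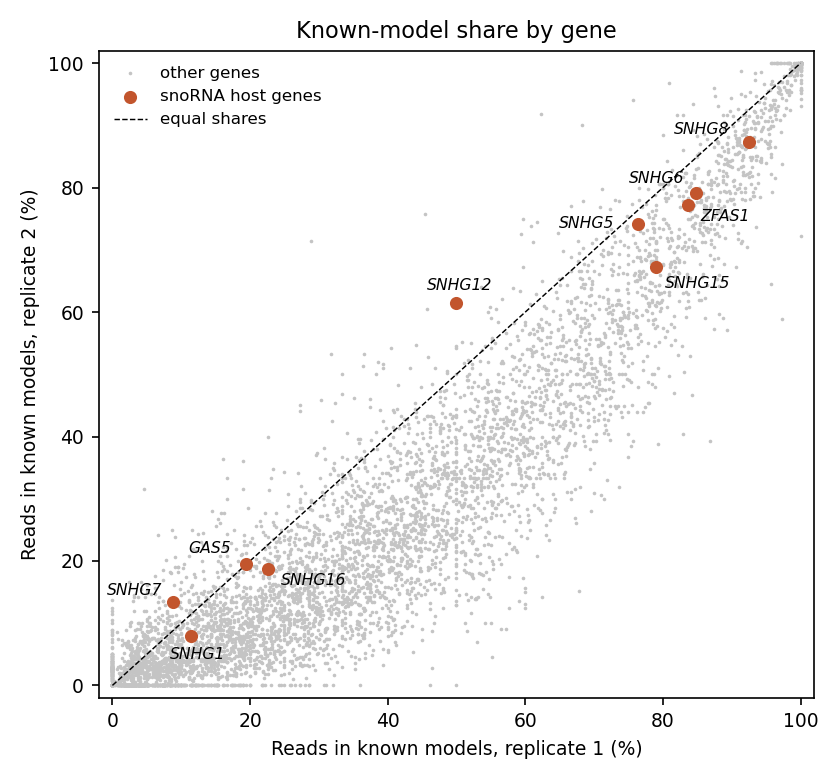
Share of known reads in replicate 1 (horizontal axis, percent) against replicate 2 (vertical axis, percent) for 6340 annotated genes, with the 10 host genes named and a dashed line of equal shares. SNHG8, SNHG6, ZFAS1, SNHG15 and SNHG5 lie at high known shares in both libraries, and GAS5, SNHG16, SNHG7 and SNHG1 lie at or below 22.7% in both.

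GAS5 (chr1:173863900-173868882, minus strand) was the host with most models. It had 198 models, of which 150 rested on 1 read, and most of its reads joined its many short exons. Models of 10 or more exons took 67.2% (61.1 to 72.8) and 58.4% (53.1 to 63.6) of its reads. GAS5-221, with 12 exons of 23 to 175 bases and 632 bases in all, took 30 and 37 reads. A NIC model of 12 exons and 595 bases took 31 and 31 reads, close to the leading annotated form. GAS5-218, of 11 exons and 565 bases, took 14 and 13, and differs from GAS5-221 in lacking its first exon and in using an inner donor in an exon of 38 rather than 77 bases. GAS5-207, of 3 exons, took 2 and 11.

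Among the GAS5 reads outside the known models, an ISM model of 2 exons and 791 bases took 19 and 20 reads, and a genomic model of 2097 bases took 9 and 22. Known reads were 19.4% and 19.6% of the gene, ISM reads 28.3% and 25.9%, NIC reads 41.3% and 41.0%, and NNC reads 7.29% and 6.93%. NIC and NNC together made 48.6% (42.4 to 54.8) and 47.9% (42.6 to 53.3). Only 82 of 6340 genes (1.29%) had a higher mean share. SNHG1 had the next highest share among the hosts, 27.1% and 26.3%, with 401 of 6340 genes above its mean.

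**Figure D4:**
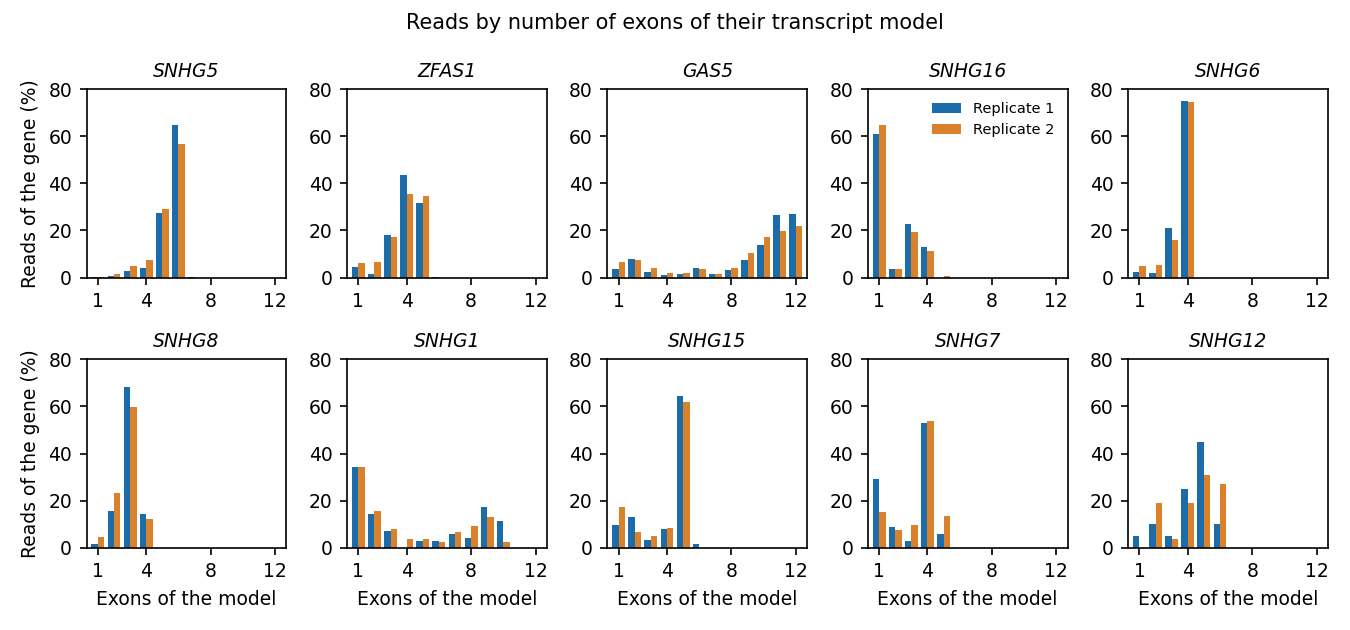
Share of each host gene's reads (vertical axis, percent, from 0) by the number of exons in the transcript model (horizontal axis), in replicate 1 and replicate 2. GAS5 peaks at 11 and 12 exons, SNHG5 at 6, SNHG6 and ZFAS1 at 4, and SNHG16 at 1 exon, in both libraries.

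SNHG5 (chr6:85660950-85678748, minus strand) was read mainly as 2 annotated forms that differ in the first intron and at the 3′ end. SNHG5-202, printed above, took 252 and 323 reads, 69.6% and 63.5% of the known reads of the gene. SNHG5-201, of 5 exons and 1032 bases, took 101 and 166 reads, 27.9% and 32.6%. As annotated, it keeps the 505-base first intron that SNHG5-202 removes, and its last exon has 202 bases against 108. The junctions of SNHG5-201 are all found in SNHG5-202 too, which adds the junction after its 40-base first exon. Read ends were not measured, so whether the reads given to SNHG5-201 cover the intron was not tested. The third form, SNHG5-206, took 5 and 6. The ends of that intron, with the donor and acceptor dinucleotides in capitals, are at chr6:85678679-85678708 and chr6:85678174-85678203 on the minus strand.
SNHG5 first intron, 5′ end: ctgggcgggtggtagGTgagtgggtattgc
SNHG5 first intron, 3′ end: accgatttcccgcAGgaacaatggcgctgt
The leading share of SNHG5 differed by -6.16 points (adjusted p = 0.251, Fisher's exact test). When ISM reads were counted with the known ones it differed by -9.40 points, with an adjusted p of 0.0133. An ISM model of 4 exons and 392 bases had 7 and 33 reads, the most-read NIC model (6 exons, 509 bases) had 12 and 13, and the most-read NNC model (6 exons, 515 bases) had 6 and 6.

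ZFAS1 (chr20:49278178-49295738, plus strand), transcribed from the opposite strand next to ZNFX1, was split over 3 annotated forms that differ in 2 cassette exons. ZFAS1-205, which has exon 3 and lacks exon 4, took 115 and 138 reads, 45.1% and 40.2% of known reads. ZFAS1-202, which has both, took 87 and 131 (34.1% and 38.2%), and ZFAS1-203, which lacks both, took 42 and 56 (16.5% and 16.3%). The exon numbers are those of ZFAS1-202, and the exons (chr20:49280485-49280570 and chr20:49280903-49280964, plus strand) are shown because they are what the forms differ by. Their lengths are 86 and 62 bases, and SNORD12 lies in the intron between them.
ZFAS1 exon 3: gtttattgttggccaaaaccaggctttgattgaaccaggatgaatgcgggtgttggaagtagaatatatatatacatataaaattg
ZFAS1 exon 4: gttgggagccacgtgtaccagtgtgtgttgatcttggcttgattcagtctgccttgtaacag
The order of the 3 forms was the same in both libraries, and the leading share differed by -4.86 points (adjusted p = 0.585, Fisher's exact test). A genomic model of 3040 bases took 14 and 28 reads, and the most-read ISM model, of 2 exons and 278 bases, took 4 and 15.

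SNHG8 (chr4:118278709-118279823, plus strand) had the highest known share of the 10, and its annotated forms differ in how much of the first exon and intron they keep. SNHG8-201 took 60 and 85 reads, 54.1% and 51.5% of known reads, with a first exon of 429 bases. SNHG8-203 took 22 and 25 reads with a first exon of 84 bases, spliced at an inner donor that leaves out 345 bases. SNHG8-204, the printed form that holds SNORA24 within its annotated first exon, took 17 and 38 reads. The only junction of SNHG8-204 is also found in SNHG8-201 and SNHG8-203. Whether the reads given to SNHG8-204 cover SNORA24 was not tested. The inner donor, with its dinucleotide in capitals, is at chr4:118278778-118278807, plus strand.
SNHG8 inner donor: cgggattaggtgaaaGTacgtagttgtctt

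SNHG6, on chromosome 8 (66921684 to 66926398, minus strand), was read mostly as 1 form. SNHG6-203, of 4 exons and 638 bases, took 118 and 128 reads, 81.4% and 84.8% of known reads. SNHG6-205 took 11 and 12, and SNHG6-201 took 14 and 6. Outside the known models, a NIC model of 4 exons and 407 bases took 5 and 9 reads and a genomic model of 428 bases took 4 and 8.

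SNHG16 (chr17:76557766-76565348, plus strand) was the host read mainly as models of 1 exon. A single genomic model of 1670 bases took 113 and 142 reads, 55.7% and 58.0% of the gene, and a second of 1732 bases took 11 and 17. SNHG16-202, the leading known form, has 3 exons and 2424 bases, of which the last exon is 2225 bases long, and took 43 and 45 reads. That exon is longer than both genomic models, and where those models lie in the gene was not determined. An ISM model of the prefix kind, which matches the start of an annotated model, had 4 exons and 2527 bases and took 22 and 28. The genomic share was 61.1% (54.2 to 67.5) and 64.9% (58.7 to 70.6), and 909 of 6340 genes (14.3%) had a higher mean share.

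SNHG15 (chr7:44983023-44986961, minus strand) was read mostly as SNHG15-203, of 5 exons and 982 bases, with 37 and 30 reads, and 75.5% and 76.9% of its known reads. SNHG15-202 took 4 and 3, and SNHG15-210 took 2 and 3. Its most-read genomic model was only 115 bases long and took 6 and 10 reads.

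SNHG7 (chr9:136721366-136728184, minus strand) was read mainly as incomplete models, 79.4% (63.2 to 89.7) and 75% (61.8 to 84.8) of the gene. A prefix model of 4 exons and 904 bases took 17 and 27 reads, 50% and 51.9% of the gene, while SNHG7-202, of 5 exons and 789 bases, took 2 and 7. Over the 10 hosts, prefix models were 26.2% and 21.3% of ISM reads against 5.81% and 4.23% in all other genes. Without SNHG7 and SNHG16 the share was 8.67% and 5.13%. Suffix models, which match the end of an annotated model, were 68.0% and 72.7% of ISM reads in the hosts against 68.4% and 68.0%.

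SNHG1 (chr11:62851988-62855914, minus strand) had 57 models, of which 44 rested on 1 read. Its most-read model was genomic, 621 bases long, with 24 and 25 reads, and an ISM model of 2 exons and 876 bases took 9 and 9. SNHG1-213, of 10 exons and 1374 bases, was its leading known form with 6 and 2 reads. SNHG12 (chr1:28578538-28583132, minus strand) had SNHG12-202 with 7 and 5 reads and SNHG12-213 with 1 and 5. At these counts no order of forms could be told for SNHG1 or SNHG12.

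**Figure D5:**
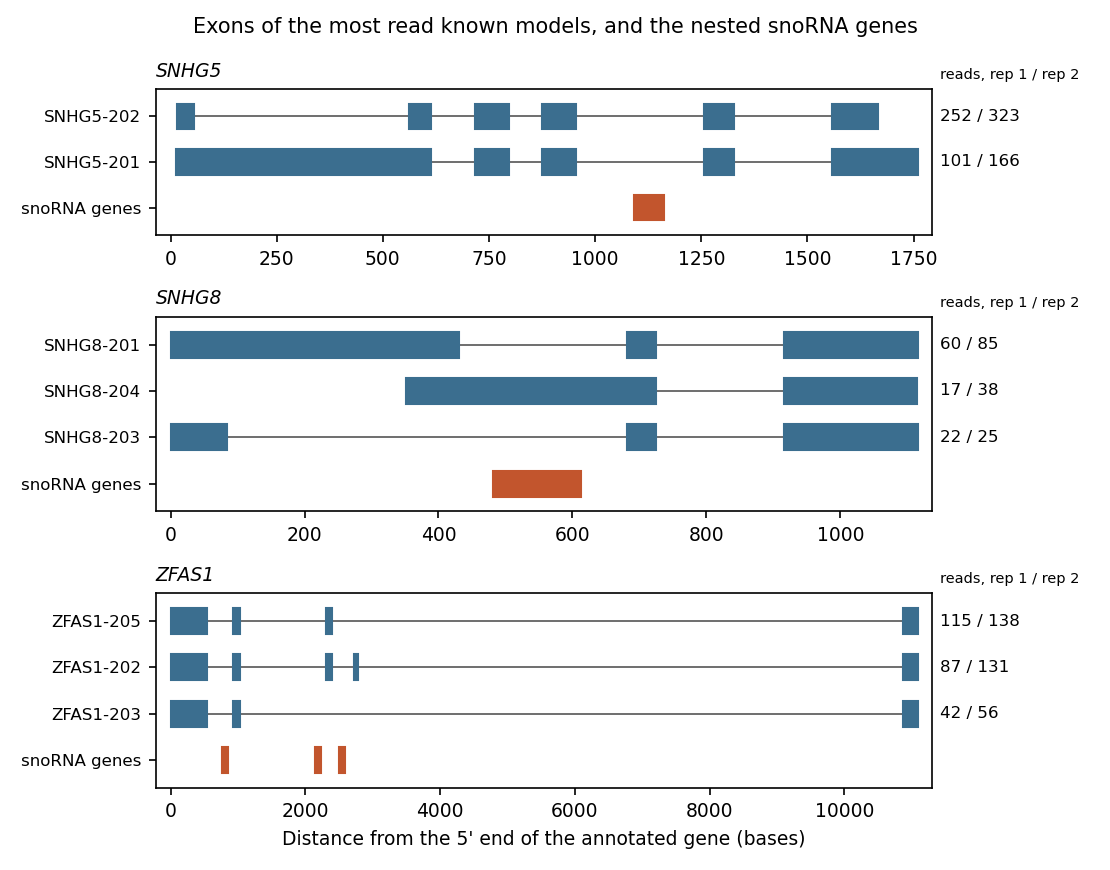
Exon maps (bases from the 5′ end of the gene on the horizontal axis) of the most-read known models of SNHG5, SNHG8 and ZFAS1, and of the nested snoRNA genes, with the reads of each model in replicate 1 and replicate 2. As annotated, SNHG5-201 keeps the 505-base first intron, the 3 ZFAS1 forms differ in 2 exons, and SNHG8-204 covers SNORA24.

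The annotation placed 26 snoRNA genes inside 9 of the 10 hosts on the same strand, from 69 to 137 bases long, 7 of them in SNHG1 and 5 in SNHG12. These are counts of annotation entries, and some entries overlap each other. SNORA17B in SNHG7 and SNORA16A in SNHG12 are each listed more than once, and SNORA17A overlaps RF00560 in SNHG7. snoRNA genes within GAS5 were not analysed here. Of the 26, 9 had a read of their own and 17 had none, which allows up to 2.21 and 1.99 CPM by counting error alone. How well RNAs this short were captured was not tested, so these counts do not give the snoRNA level of the cells. Together they gave 15 and 32 reads, all in known models of 1 exon. SNORA9, in SNHG15, had 7 and 16 reads (5.15 and 10.6 CPM, adjusted p = 0.523, exact binomial test). SNORA24, in SNHG8, had 2 and 10 reads (1.47 and 6.62 CPM, adjusted p = 0.288, exact binomial test). SNORD99, in SNHG12, had 1 and 2. The other 6 had 1 or 2 reads over both libraries. A short read from a host that lies within the snoRNA, and a read of the snoRNA itself, cannot be told apart by these counts.

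A second measure was the share of known host reads in annotated models that hold a whole nested snoRNA within an exon. It goes by the annotated exons, and whether each read spans the snoRNA was not tested. SNHG8-204, SNHG15-202 and SNHG5-205 each have 2 exons, and their junction is also found in other forms of the gene. Over the 9 hosts it was 4.45% (44 of 989 reads, 95% Wilson interval 3.33 to 5.92) and 4.99% (64 of 1282 reads, 3.93 to 6.32). SNHG8 had the highest share among the hosts with over 100 known reads in each library, 15.3% (9.79 to 23.2) and 23.0% (17.3 to 30.02), all in SNHG8-204. The mean of both libraries was 4.72% over these hosts and 2.70% without SNHG8. ZFAS1 had 0 of 255 and 0 of 343 known reads, which allows up to 1.18% and 0.875%. SNHG5 had 0.829% and 1.57%, SNHG6 1.38% and 3.31%, and SNHG15 8.16% and 7.69%, the last in SNHG15-202, which keeps SNORA9 in an exon of 2816 bases.

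In SNHG12, SNHG12-202 holds SNORA61 in an exon, and models with a snoRNA took 7 of 10 and 8 of 16 known reads. In SNHG1, SNHG1-213 holds SNORD25, and such models took 7 of 8 and 2 of 6 known reads. The leading known model was free of any whole snoRNA in 7 of the 9 hosts, and SNHG1 and SNHG12 were the other 2, both with few known reads.

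The annotated start of the gene was searched for a pyrimidine tract, since such tracts mark messages of ribosomal proteins and several hosts. The search used RefSeq promoter windows (GRCh38.p14, from 250 bases before to 50 after the start) and asked for a C followed by at least 4 of C or T, beginning within 5 bases of the start on the strand of the gene. It found the tract in 6 of the 8 hosts with an entry, against 21.1% of 35116 promoters and 22.5% of the 11444 promoters of genes with reads in these libraries. SNHG6 and SNHG15 had no entry. The windows below run from 15 bases before the start to 25 from it, with the tract in capitals, and GAS5 and SNHG1 are shown as the members without a match. They lie at chr6:85678709-85678748 (SNHG5), chr20:49278627-49278666 (ZFAS1), chr4:118278747-118278786 (SNHG8), chr17:76557749-76557788 (SNHG16), chr9:136728160-136728199 (SNHG7), chr1:28581849-28581888 (SNHG12), chr1:173869021-173869060 (GAS5) and chr11:62855861-62855900 (SNHG1).
SNHG5 start: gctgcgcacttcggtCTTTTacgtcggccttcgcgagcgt
ZFAS1 start: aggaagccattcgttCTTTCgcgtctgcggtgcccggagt
SNHG8 start: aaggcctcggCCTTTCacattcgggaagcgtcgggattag
SNHG16 start: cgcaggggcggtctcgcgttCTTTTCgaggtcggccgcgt
SNHG7 start: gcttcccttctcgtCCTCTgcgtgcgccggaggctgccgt
SNHG12 start: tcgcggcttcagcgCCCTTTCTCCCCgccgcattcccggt
GAS5 start: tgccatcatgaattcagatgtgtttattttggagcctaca
SNHG1 start: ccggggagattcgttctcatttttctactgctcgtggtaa
The GAS5 window lies outside the gene's GENCODE interval, which ends at 173868882, and no known model with reads starts in it or in the SNHG1 window. Known models that start within the printed window held 353 of 362 and 491 of 509 known reads of SNHG5, 46 of 46 and 46 of 46 of SNHG16, 3 of 3 and 7 of 7 of SNHG7 and 7 of 10 and 8 of 16 of SNHG12. They held only 12 of 111 and 17 of 165 for SNHG8 and 10 of 255 and 18 of 343 for ZFAS1, whose most-read forms have other annotated starts. A match describes letters in these windows and no match says only that they were not found there.

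Genes of related function gave the following counts. Of 19 other noncoding snoRNA hosts, 15 had reads, 11 were tested, and 1 was called, lower in replicate 2. This was DANCR, a regulator of cell differentiation, with 247 and 186 reads (log2 difference -0.56, adjusted p = 0.0026, exact binomial test) and a known share of 80.6% and 57.0%. EPB41L4A-AS1 had 58 and 70 reads and SNHG3 had 43 and 44. Of 20 protein-coding hosts, 4 were called higher (RPS3, RPS12, EEF2 and RPL12, log2 differences of 0.10 to 0.14) and 5 lower. Among the 5 were EIF4A1 at -1.0005, NOP56 at -0.62, HSPA8 at -0.47 and NCL at -0.28. Over all genes in this count test, 2.72% were called higher and 2.33% lower in replicate 2. Those with most reads were RPL13A with 6457 and 7534, RPS3 with 6051 and 7191 and RPL7A with 5753 and 6603. Their known share was called lower in 16 of 20, against 26.9% of all genes, with a median difference of -9.95 points against -8.62 over all genes. These genes had from 154 to 7534 reads in a library and the 10 noncoding hosts from 20 to 686, so their calls were not compared. Of 10 factors of nonsense-mediated decay, 0 were called by the exact binomial test and 3 had an unadjusted p under 0.05, against 15.8% of all genes tested. UPF1, the central helicase of that route, stood at 66.2 and 58.9 CPM.

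Genes on the opposite strand overlap 6 of the hosts. ZNFX1 overlaps ZFAS1 by 249 bases and had 42 and 29 reads, TRNAU1AP overlaps SNHG12 by 8 bases and had 37 and 45, ZBTB37 overlaps GAS5 by 801 bases and had 2 and 1, and the other overlapping genes had 0 reads. Whether the counting used the strand of the reads is not given in the sources used here.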

How the data were processed

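The deposited table holds read counts per transcript model for both libraries, with the exon number and length of each model in bases, per the file headers. The reads came from direct RNA libraries, per the labels' protocols. minimap2 and hg38 are named in the submitters' processing notes. The model categories follow TALON, and versions, read filters and the annotation release are not given in the sources used here. All 23533 known models and all 16645 annotated genes matched GENCODE release 29, which gave exons, nested snoRNAs and sequences. Counts were summed per gene and divided by the library total (1360368 and 1510998 reads). With 1 group of 2 libraries no model of replicates could be fitted. Exact binomial tests (at least 10 reads) and Fisher's exact tests (at least 20 reads in each library) were used across all genes, with Benjamini-Hochberg adjustment and calls at an adjusted p under 0.05, in scipy 1.17.1. 0.5 was added to counts for log2 ratios. On counts simulated with Poisson error only, 61% of 2-fold and 93% of 4-fold changes were called. The changed genes there had a higher minimum count than the test used, so these rates do not carry over to genes with few reads, such as SNHG12. The alternatives were TMM (edgeR 4.0.16) and DESeq2 1.42.0 size factors, other minimum counts and leaving out model categories. Named models were the 3 known models and the ISM, NIC, NNC and genomic models of at least 10 reads with most reads per gene, and snoRNAs with at least 3 reads. Other models and nested snoRNA shares were described after their values were seen. Some items are not reported here. The members and lists were chosen with earlier results of these data known.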

Additional observations from a re-analysis of the deposited data

How the results depend on the processing

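The calls of SNHG5 and ZFAS1 in the count test held under every scaling, minimum and category alternative run. Of the uncalled differences, 4 changed sign: SNHG6 to -0.016 with TMM scaling, SNHG1 to 0.067 without genomic models, and the leading share of SNHG15 to -2.97 and of SNHG16 to -2.46 points when ISM reads were counted. SNHG8 passed the threshold with DESeq2 size factors (log2 difference 0.51, adjusted p = 0.0496), with known models only (0.70, adjusted p = 0.00094) and without genomic models (0.57, adjusted p = 0.0134, all exact binomial tests), against 0.056 in the main analysis. Counting known models only moved the calls over all genes from 537 to 1042, of which 31.1% were higher in replicate 2 against 53.8%, with a median log2 difference of -0.26, and without genomic models 41.5% of 723 calls were higher. Known models only also moved the noncoding hosts from 1 call to 2 and the summed level from 1388 to 1654 CPM, scaled to known reads. Decay factors went from 0 calls to 1 with TMM scaling and to 1 without genomic models. The known-share calls over all genes went from 1721 to 1008 with models of 2 or more exons. The leading-form calls went from 234 to 1556 over all genes and from 0 to 1 in the hosts (SNHG5) when ISM reads were counted. Mean category shares moved as follows. Known reads, 59.7%, became 67.1% without genomic models, 67.5% with 2 or more exons, 64.3% with models of at least 2 reads and 51.7% as the mean of the genes' shares. NIC reads, 11.04%, became 12.4%, 12.5%, 8.27% and 8.92% in the same order, and NNC reads, 4.67%, became 5.25%, 5.29%, 2.70% and 5.54%. Genomic reads, 10.99%, became 0.0331%, 11.8% and 12.9% under the last 3, and ISM reads, 13.6%, became 20.9% as the mean of the genes' shares. The snoRNA share went from 4.72% to 2.70% without SNHG8, an alternative chosen after seeing the data. The cause of these shifts was not tested beyond the models or genes each alternative leaves out. Leaving out 1 replicate gave 58.6% to 60.8% for known, 12.1% to 15.1% for ISM, 10.8% to 11.3% for NIC, 4.31% to 5.04% for NNC and 10.8% to 11.1% for genomic reads, and 1254 to 1521 CPM for the summed level. With 1 library left, no test between libraries exists. No paired analysis was possible because all libraries belong to 1 group. Depth limits SNHG12, SNHG7, SNHG15 and SNHG1 most, with 20 to 76 reads in a library.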

Other observations

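Among all annotated hosts with at least 20 known reads in each library, 76 genes of which 6 belong to the 10 hosts, 35 had no known read in a model with a whole snoRNA in an exon, and 17 had over 5% in both libraries. By the mean of both libraries SNHG8 ranked 9. TPT1, a translationally controlled protein gene, ranked 1 with 94.4% and 83.3%, and SNHG3, another noncoding host, ranked 3 with 64.9% and 64.1%. These hosts were named after their values were seen, and the share depends on which models the annotation lists. Whether the reads of these models span the snoRNA was not tested here either.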
